A study of Danio rerio with 3 samples.

Results

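The genes described here are 4 receptor and adhesion genes of blood vessels and 1 transcription factor gene, read in macrophage reporter cells, neutrophil reporter cells and the remaining cells of the zebrafish embryo. They were chosen by name: kdrl, flt4, cdh5, tek, tie1 and fli1a. Of these 6, 5 were matched by gene ID among the 14428 genes of the expression table, and tie1 was not analysed here. The 3 libraries came from untreated wild-type zebrafish embryos, 72 hours post fertilization, positive for both mpeg1:mCherry and mpx:EGFP, transgenes in which promoters active in macrophages and in neutrophils drive a red and a green fluorescent protein. About 1000 embryos were pooled and dissociated, and flow cytometry gave separate pools of mCherry+, of EGFP+ and of double-negative cells, the last being cells of the embryo without either reporter, with more than 50000 cells in each pool. Each population gave 1 library, so no value has a replicate error, no p-value is given, and a difference can be described but not set against biological spread.

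Endothelial cells line blood and lymphatic vessels, and they are known by the receptors they carry. The kdrl and flt4 genes encode receptor tyrosine kinases for vascular endothelial growth factors (VEGFs), which drive vessel sprouting and, through flt4, growth of veins and lymphatics. The cdh5 gene encodes VE-cadherin, which joins endothelial cells to each other, and tek and tie1 encode the paired receptors of the angiopoietin pathway, which steadies vessels. The fli1a gene encodes an ETS-family transcription factor that acts early in the endothelial and blood lineages, and fli1a promoter transgenes are widely used to label zebrafish vessels. In mammals a subset of macrophages also carries the angiopoietin receptor TEK, and FLI1 is expressed in many blood cells as well as in endothelium.

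The sort was checked on marker lists. The 13 macrophage markers measured summed to 8323 FPKM in mCherry+, 1128 in EGFP+ and 26.1 in double-negative cells. FPKM counts the fragments of a gene per length of its transcript and per fragments of the whole library, so levels can be compared between genes within a library. The 11 neutrophil markers summed to 3049 FPKM in mCherry+, 45965 in EGFP+ and 64.4 in double-negative cells. Both lists were thus highest in the library named for them. This was partly fixed by the sort, since the lists include mpeg1 (1396 FPKM in mCherry+) and mpx (12480 in EGFP+). Much of each sum in the other reporter library came from 1 gene high in both. These were fcer1gl of the neutrophil list (2011 FPKM in mCherry+) and ctssb.1 of the macrophage list (783 in EGFP+). Beyond these, mpx had 55.8 FPKM in mCherry+ against 3.10 in double-negative cells, and mpeg1 had 9.92 in EGFP+ against 2.84. At least 4-fold above the double-negative level were 9 of 11 neutrophil markers in mCherry+ cells, beside 8.18% of all genes. In EGFP+ cells 4 of 13 macrophage markers were, beside 8.53%. Both counts include further genes high in both reporter libraries. In the neutrophil list these were csf3r (365 FPKM in mCherry+, 659 in EGFP+), ncf1 (313 and 718) and cebpa (137.9 and 99.0). In the macrophage list spi1a (313 and 188) was such a gene.

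The 5 genes fell into 3 patterns. The endothelial genes kdrl, flt4 and cdh5 had lower FPKM in both reporter libraries than in the double-negative library, each by less than 4-fold. The rank of kdrl among all genes was nearly the same in the 3 libraries. The angiopoietin receptor gene tek was higher in both reporter libraries, most in mCherry+ cells. The transcription factor gene fli1a was high in EGFP+ cells and near the double-negative level in mCherry+ cells.

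**Figure D1:**
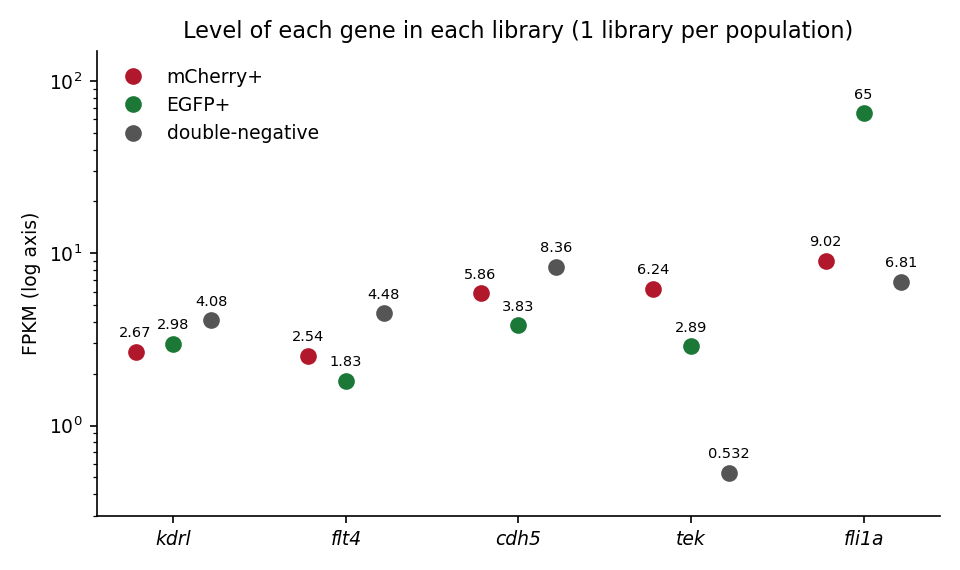
FPKM (log axis) of kdrl, flt4, cdh5, tek and fli1a in the mCherry+, EGFP+ and double-negative libraries, 1 point per library. The first 3 genes are highest in the double-negative library, tek is highest in the mCherry+ library at 6.24, and fli1a is highest in the EGFP+ library at 65.0.

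Among the VEGF receptors, kdrl had 2.67 FPKM in mCherry+, 2.98 in EGFP+ and 4.08 in double-negative cells. The lymphatic and venous receptor gene flt4 had 2.54 FPKM in mCherry+, 1.83 in EGFP+ and 4.48 in double-negative cells. Both were thus highest in the double-negative library and still above an FPKM of 1 in the reporter libraries. On the log2(FPKM + 1) scale, which understates the differences of low genes, the mCherry+ over double-negative ratio was −0.47 for kdrl and −0.63 for flt4. The EGFP+ over double-negative ratio was −0.35 for kdrl and −0.96 for flt4. Both sets of ratios use the same double-negative library. Without a pseudocount the EGFP+ ratio of kdrl was −0.455, where housekeeping log2 ratios had a median of 0.47 and an SD of 0.75. Its mCherry+ ratio was then −0.61, where housekeeping log2 ratios had a median of 0.44 and an SD of 0.46. By rank kdrl hardly differed among genes at an FPKM of 1 or higher in some library. Of these, 30.6% were below kdrl in mCherry+, 31.5% in EGFP+ and 31.4% in double-negative cells. For flt4 the values were 29.6%, 22.3% and 34.1% in the same order.

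The VE-cadherin gene cdh5 had 5.86 FPKM in mCherry+, 3.83 in EGFP+ and 8.36 in double-negative cells. Its log2 ratio over double-negative cells was −0.45 in the mCherry+ library and −0.95 in the EGFP+ library. Without a pseudocount the mCherry+ ratio of cdh5 was −0.51. Housekeeping log2 ratios for that comparison, also without a pseudocount, had a median of 0.44 and an SD of 0.46. Taken as a share of the double-negative FPKM, the mCherry+ library held 70.1% of the cdh5 level, 65.5% of the kdrl level and 56.6% of the flt4 level. The EGFP+ library held 45.8% of the cdh5 level, 73.0% of the kdrl level and 40.7% of the flt4 level. These shares were larger than those of the main globin and collagen genes in the same libraries. The embryonic globin gene hbae3 stood at 3.03% of its double-negative level in mCherry+ cells and 4.38% in EGFP+ cells. The type I collagen gene col1a1a stood at 28.1% in mCherry+ cells and 30.5% in EGFP+ cells. Shares of other mural and fibroblast genes varied. Some were in the range of the vessel genes or above, more of them in mCherry+ than in EGFP+ cells. The gene postnb was below that range, at 23.7% in mCherry+ and 20.3% in EGFP+ cells. The gene pdgfrb stood at 112.1% in mCherry+ and 75.3% in EGFP+ cells, and acta2 at 63.0% and 18.4%. Of the 13 genes of that list, 11 were below the double-negative level in each reporter library, beside 51.3% of all genes. Over their whole lists, erythroid genes had median log2 ratios of −2.97 in mCherry+ and −2.67 in EGFP+ cells, and mural and fibroblast genes −0.63 in mCherry+ and −1.76 in EGFP+ cells. In sorted populations fewer cells of a type and less RNA per cell cannot be told apart. In the current zebrafish assembly (GRCz12tu) cdh5 overlaps a long non-coding RNA gene, and it is not given in the sources used here whether the counting used strand.

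The angiopoietin receptor gene tek had 6.24 FPKM in mCherry+, 2.89 in EGFP+ and 0.532 in double-negative cells. It was the lowest of the 5 genes in the double-negative library, where 3.39% of 12285 genes had a lower value; these are the genes at an FPKM of 1 or higher in some library. In the mCherry+ library 48.1% of those genes were lower. The FPKM ratio over double-negative cells was 11.7 for mCherry+ cells and 5.43 for EGFP+ cells. On the log2(FPKM + 1) scale these were 2.24 and 1.35. In mCherry+ cells tek was therefore past the 4-fold threshold used for all genes, a log2 ratio of 2, which 8.18% of the 12285 genes passed upward in that comparison. The call was close to that threshold: it was lost with the libraries scaled by their median ratio (1.92), by housekeeping genes (1.87) or to a common FPKM sum (1.68), and under a pseudocount of 5 (1.02). The ratio stayed above 0 in all of these, and without a pseudocount it was 3.55. Because the read depth is unknown, the counting error of the low double-negative value of tek cannot be given.

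The order of tek among the vessel genes differed between libraries. In the mCherry+ library the tek FPKM was 2.33 times that of kdrl and 1.07 times that of cdh5. In the EGFP+ library it was 0.972 times kdrl and 0.755 times cdh5, and in the double-negative library 0.131 times kdrl and 0.0637 times cdh5. These ratios are taken within a library and do not depend on how the libraries were scaled to each other. Between mCherry+ and EGFP+ cells the log2 ratio was 0.90 for tek, 0.51 for cdh5, 0.32 for flt4 and −0.11 for kdrl, all under 4-fold.

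The transcription factor gene fli1a had 9.02 FPKM in mCherry+, 65.0 in EGFP+ and 6.81 in double-negative cells. Its log2 ratio over double-negative cells was 3.08 in EGFP+ cells, a 9.54-fold difference in FPKM, and it was the only one of the 5 genes at least 4-fold higher there, beside 8.53% of all genes. In the EGFP+ library 89.0% of the 12285 genes had a lower FPKM than fli1a, while 56.4% did in mCherry+ cells and 47.1% in double-negative cells. In mCherry+ cells the log2 ratio over double-negative cells was 0.36, which was −0.03 with housekeeping scaling and −0.24 with the same FPKM sum, so no direction is read from it. Between the reporter libraries fli1a was at least 4-fold lower in mCherry+ than in EGFP+ cells (log2 ratio −2.72), beside 3.34% of all genes. None of the other 4 genes was past 4-fold in either direction between those libraries, where 3.90% of all genes were at least 4-fold higher in mCherry+ cells.

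None of the 5 genes was at least 4-fold lower in mCherry+ or EGFP+ cells than in double-negative cells, beside 7.36% and 5.38% of all genes. The median log2 ratio of the 5 was −0.45 for mCherry+ over double-negative cells and −0.35 for EGFP+ over double-negative cells, beside −0.04 and −0.05 over all genes tested. For mCherry+ over EGFP+ cells it was 0.32, beside −0.08. Ordered by FPKM, the 5 genes ran fli1a, tek, cdh5, kdrl, flt4 in the mCherry+ library and fli1a, cdh5, kdrl, tek, flt4 in the EGFP+ library. In the double-negative library the order was cdh5, fli1a, flt4, kdrl, tek. With 1 library each, neighbours in these orders cannot be set against a spread.

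**Figure D2:**
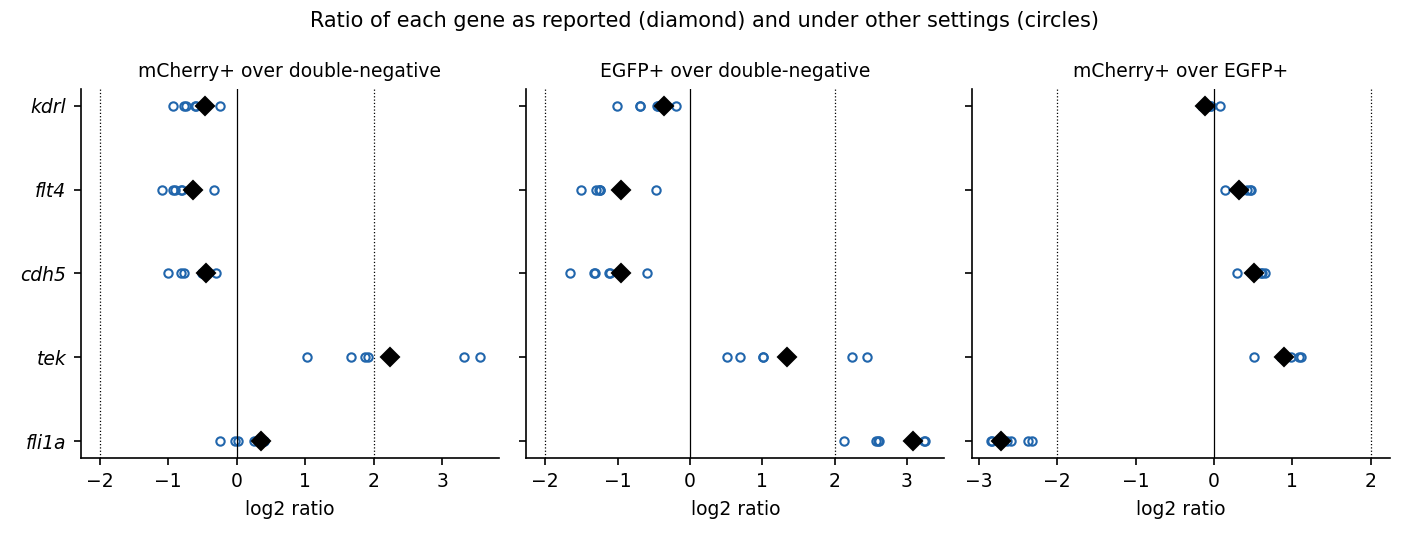
The log2 ratio of each gene in the 3 comparisons as reported (black diamonds) and under the other pseudocounts, scalings and filters (open circles), with dotted lines at 4-fold where they fall inside the axis. kdrl, flt4 and cdh5 stay below 0 in both comparisons with double-negative cells, tek stays above 0 but crosses the 4-fold line, and fli1a stays past 4-fold in the panels that involve EGFP+ cells.

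The VEGF receptors and co-receptors were read from a list of 9 genes, all measured, which includes kdrl and flt4. The type-2 VEGF receptor paralog kdr had 1.93 FPKM in mCherry+, 1.39 in EGFP+ and 2.17 in double-negative cells. The VEGF-binding receptor gene flt1 had 0.476 FPKM in mCherry+, 0.609 in EGFP+ and 2.00 in double-negative cells. Both were low in every library and highest in the double-negative library, as were kdrl and flt4. The semaphorin receptor gene plxnd1 went the other way, with 59.6 FPKM in mCherry+, 26.3 in EGFP+ and 0.868 in double-negative cells. The co-receptor gene nrp1b had 45.7 FPKM in mCherry+, 4.64 in EGFP+ and 9.99 in double-negative cells, and it was past 4-fold in mCherry+ cells by a log2 ratio of 2.09. Its paralog nrp1a had 42.0 FPKM in mCherry+, 12.7 in EGFP+ and 38.7 in double-negative cells. In all, 2 of the 9 were at least 4-fold higher in mCherry+ cells and 1 in EGFP+ cells, none was at least 4-fold lower, and the list medians were −0.47 and −0.96. Of all genes, 8.18% were that much higher in mCherry+ and 8.53% in EGFP+ cells. That much lower were 7.36% in mCherry+ and 5.38% in EGFP+ cells. The same shares stand beside the unscaled counts of each list below. Another co-receptor gene, nrp2b, had 17.6 FPKM in mCherry+, 8.75 in EGFP+ and 27.3 in double-negative cells. With each of the 3 scalings 1 of the 9 was at least 4-fold higher in mCherry+ cells, and with the same FPKM sum 3 were at least 4-fold lower in EGFP+ cells. Of all 12285 genes, 763 (median-ratio), 735 (housekeeping) and 616 (same FPKM sum) were that much higher in mCherry+ cells. With the same FPKM sum 1766 were that much lower in EGFP+ cells, against 661 without scaling.

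The ligands were found less completely, 5 of 11 by name, of which 4 were high enough to be tested. The lymphatic growth factor gene vegfc, whose product binds Flt4, had 11.8 FPKM in mCherry+, 1.08 in EGFP+ and 1.37 in double-negative cells. It was the only ligand gene at least 4-fold higher in mCherry+ cells (log2 ratio 2.43), and this call was lost with the same FPKM sum. The main sprouting factor gene vegfaa had 12.9 FPKM in mCherry+, 18.9 in EGFP+ and 20.4 in double-negative cells and its paralog vegfab had 2.35 FPKM in mCherry+, 12.7 in EGFP+ and 7.77 in double-negative cells. Ligands of the angiopoietin pathway were low: angpt1, which encodes the activating ligand of Tek, had 4.22 FPKM in mCherry+, 1.90 in EGFP+ and 4.69 in double-negative cells. The gene ptprb, which encodes a phosphatase that acts on Tek, had 2.38 FPKM in mCherry+, 5.96 in EGFP+ and 4.23 in double-negative cells. Neither was past 4-fold in the comparisons with double-negative cells, so tek was the 1 of 3 tested genes of its list at least 4-fold higher in mCherry+ cells, and no gene of the list was in EGFP+ cells.

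Of the junction genes that work beside VE-cadherin, 15 of 26 were matched by name, cdh5 included. The claudin gene cldn5b, also of the endothelial junction, was likewise highest in the double-negative library: it had 7.02 FPKM in mCherry+, 4.06 in EGFP+ and 11.3 in double-negative cells. The catenin gene ctnnb1, used by cadherins in many tissues, had 150.1 FPKM in mCherry+, 107.7 in EGFP+ and 185.6 in double-negative cells, and the plakoglobin gene jupa had 30.1 FPKM in mCherry+, 23.3 in EGFP+ and 57.4 in double-negative cells. The gene ccm2, whose human ortholog is mutated in cerebral cavernous malformations, had 21.9 FPKM in mCherry+, 139.0 in EGFP+ and 7.20 in double-negative cells, a log2 ratio of 4.09 in EGFP+ cells. Thus 1 of the 15 was at least 4-fold higher in mCherry+ cells and 2 were in EGFP+ cells, beside 8.18% and 8.53% of all genes. None was at least 4-fold lower, beside 7.36% and 5.38%, and the medians were −0.45 and −0.84. The junction adhesion gene f11r had 62.8 FPKM in mCherry+, 87.5 in EGFP+ and 33.3 in double-negative cells. With each of the 3 scalings none of the 15 was at least 4-fold higher in mCherry+ cells and 1 was in EGFP+ cells, and with the same FPKM sum 3 were at least 4-fold lower in EGFP+ cells. The last count stands beside 1766 of all 12285 genes.

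The ETS family, to which fli1a belongs, was read from a list of 30 names, of which 21 were matched and 17 were high enough to be tested. The fli1a paralog fli1b had 17.3 FPKM in mCherry+, 53.7 in EGFP+ and 1.26 in double-negative cells. The related gene erg had 1.02 FPKM in mCherry+, 8.44 in EGFP+ and 0.433 in double-negative cells. All 3 of these close relatives were thus highest in the EGFP+ library, but fli1b was also past 4-fold in mCherry+ cells (log2 ratio 3.02), where fli1a was not. The balance of the paralogs differed between libraries: the fli1a FPKM was 0.521 times that of fli1b in mCherry+ cells, 1.21 times in EGFP+ cells and 5.40 times in double-negative cells. Reads shared between near-identical stretches of fli1a and fli1b could have been divided by the authors' quantification.

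Across that family 4 of 17 genes were at least 4-fold higher in mCherry+ cells and 7 in EGFP+ cells, beside 8.18% and 8.53% of all genes. None was at least 4-fold lower, beside 7.36% and 5.38%. The family medians were 0.71 for mCherry+ and 1.61 for EGFP+ over double-negative cells, and 0.20 and 0.67 with the same FPKM sum. The myeloid regulator gene spi1a had 313 FPKM in mCherry+, 188 in EGFP+ and 1.43 in double-negative cells, and its paralog spi1b had 192 FPKM in mCherry+ and 391 in EGFP+ cells and was listed at 0 in double-negative cells. The gene etv4, which acts below fibroblast growth factors, was past 4-fold over double-negative cells in the mCherry+ library (log2 ratio 2.84), with 32.3 FPKM in mCherry+, 2.58 in EGFP+ and 3.66 in double-negative cells. The repressor gene elk3 had 17.2 FPKM in mCherry+, 30.6 in EGFP+ and 5.52 in double-negative cells and ets2 had 108.3 FPKM in mCherry+, 109.1 in EGFP+ and 35.1 in double-negative cells. Early endothelial etv2 had 2.45 FPKM in mCherry+, 4.87 in EGFP+ and 1.196 in double-negative cells, and was past 4-fold in neither comparison. The EGFP+ count of 7 was 5 with the median-ratio or housekeeping scaling and 4 with the same FPKM sum. Over all 12285 genes that count was 1048 without scaling and 708, 714 and 514 with these scalings in order.

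**Figure D3:**
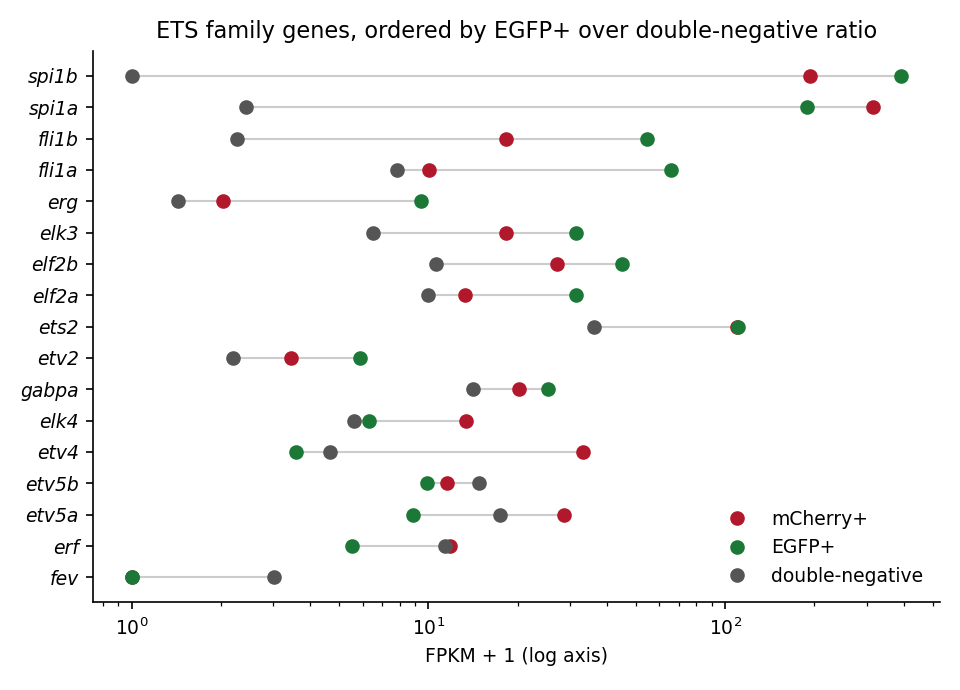
FPKM + 1 (log axis) of the 17 measured ETS genes in the mCherry+, EGFP+ and double-negative libraries, 1 point per library and a grey line over the range of each gene, ordered by the EGFP+ over double-negative ratio. fli1a lies apart from its paralog fli1b in having its mCherry+ value (9.02 FPKM) beside its double-negative value (6.81 FPKM); for ets2 and fev the points of the reporter libraries overlie each other.

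Other genes of vessels were read from lists of transcription factors, arterial genes, venous and lymphatic genes, and surface and signalling genes. Among the transcription factors, 17 of 23 tested genes were below the double-negative level in mCherry+ cells and 18 in EGFP+ cells. Of all genes, 51.3% were below it in each comparison. The venous regulator gene nr2f2 had 14.3 FPKM in mCherry+, 13.5 in EGFP+ and 51.8 in double-negative cells. The lymphatic regulator gene prox1a, which is also expressed in liver, lens and nervous tissue, had 5.87 FPKM in mCherry+, 15.7 in EGFP+ and 32.9 in double-negative cells and was the 1 gene of the list at least 4-fold lower in mCherry+ cells. Those at least 4-fold higher in mCherry+ cells numbered 4: mafbb (318 FPKM against 2.38 in double-negative cells) and mafba (100.8 against 7.81), Maf-family genes that also act in macrophages, the flow-responsive gene klf2a (34.5 against 6.93) and mef2cb (10.6 against 1.62). With each of the 3 scalings 2 genes of the list were called higher there, and 2 or 3 were called lower. Over all 12285 genes, 616 to 763 were called higher and 1230 to 1499 lower under these scalings. In EGFP+ cells none was at least 4-fold higher, and hey2, a target of Notch in arteries, was at least 4-fold lower (0.248 FPKM against 4.06). With the median-ratio or housekeeping scaling 2 genes were lower by that much, beside 1109 and 1100 of all 12285 genes. With the same FPKM sum 5 were, beside 1766. The flow-responsive paralog klf2b had 37.7 FPKM in mCherry+, 181.7 in EGFP+ and 81.1 in double-negative cells.

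Notch and arterial genes had medians of −0.75 in mCherry+ cells and −1.34 in EGFP+ cells. Of 11 tested genes, 1 was at least 4-fold higher in each reporter library and 1 (hey2) at least 4-fold lower in EGFP+ cells. The higher gene was notch2, with 86.5 FPKM in mCherry+, 69.9 in EGFP+ and 16.7 in double-negative cells; its calls past 4-fold were lost with each of the 3 scalings. Under those scalings 1 gene was at least 4-fold lower in mCherry+ cells, beside 1230 to 1499 of all 12285 genes. With the same FPKM sum 5 of the 11 were at least 4-fold lower in EGFP+ cells, beside 1766 of all genes. The receptor gene notch1a had 40.7 FPKM in mCherry+, 10.9 in EGFP+ and 18.7 in double-negative cells, and notch3 had 10.2 FPKM in mCherry+, 5.80 in EGFP+ and 17.8 in double-negative cells. The arterial ligand gene efnb2a had 29.1 FPKM in mCherry+, 11.7 in EGFP+ and 31.8 in double-negative cells. Of the venous, lymphatic and scavenger list, 9 of 16 names were matched. Of 8 tested genes, 7 were below the double-negative level in each reporter library, beside 51.3% of all genes, and none was at least 4-fold higher. At least 4-fold lower in mCherry+ cells was 1 (prox1a), beside 7.36% of all genes. With each of the 3 scalings 2 were that much lower in mCherry+ cells and 1 in EGFP+ cells. Over all 12285 genes those counts were 1230 to 1499 and 1100 to 1766. The venous receptor gene ephb4a had 5.34 FPKM in mCherry+, 5.62 in EGFP+ and 8.04 in double-negative cells. The scavenger receptor gene scarb1 was above the double-negative level in mCherry+ cells (11.8 FPKM against 3.07) and not in EGFP+ cells (1.57).

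Among surface and signalling genes, egfl7, an endothelial secreted factor gene, had 3.41 FPKM in mCherry+, 2.51 in EGFP+ and 4.48 in double-negative cells, near the levels of kdrl. The list medians were −0.29 in mCherry+ and −0.41 in EGFP+ cells. The chemokine receptor gene cxcr4b had 93.4 FPKM in mCherry+, 224 in EGFP+ and 8.13 in double-negative cells, and was the 1 gene of the 20 tested at least 4-fold higher in EGFP+ cells. In mCherry+ cells 4 were: cxcr4b, the BMP receptor gene acvrl1 (31.4 FPKM against 4.78), the phosphatase gene dusp5 (35.4 against 5.21) and tek. With the same FPKM sum 1 of the 20 was at least 4-fold higher in each reporter library and 2 were at least 4-fold lower in EGFP+ cells. Of all 12285 genes, 616 were then higher in mCherry+ cells, 514 higher in EGFP+ cells and 1766 lower in EGFP+ cells. The sialomucin gene podxl had 25.3 FPKM in mCherry+, 13.4 in EGFP+ and 16.6 in double-negative cells. Over all endothelial lists without the ETS family, each gene counted once and kdrl, flt4, cdh5 and tek left out, 84 genes were tested. Of these, 70.2% were below the double-negative level in mCherry+ cells and 77.4% in EGFP+ cells, beside 51.3% of all genes in each comparison. At least 4-fold higher were 12 of the 84 (14.3%) in mCherry+ cells and 5 (5.95%) in EGFP+ cells, beside 8.18% and 8.53% of all genes. The 12 include mafba, which is also on the macrophage marker list. With the same FPKM sum the 4 transcription factor genes called higher in mCherry+ cells became 2. Over all 12285 genes that count was then 616. At least 4-fold lower was 1 of the 84 (1.19%) in each, beside 7.36% of all genes in mCherry+ and 5.38% in EGFP+ cells. These pooled counts were made without scaling only, and the lists they come from depended on it. With the same FPKM sum, 5 of 23 transcription factor genes and 5 of 11 Notch and arterial genes were at least 4-fold lower in EGFP+ cells. Of all 12285 genes, 1766 were.

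**Figure D4:**
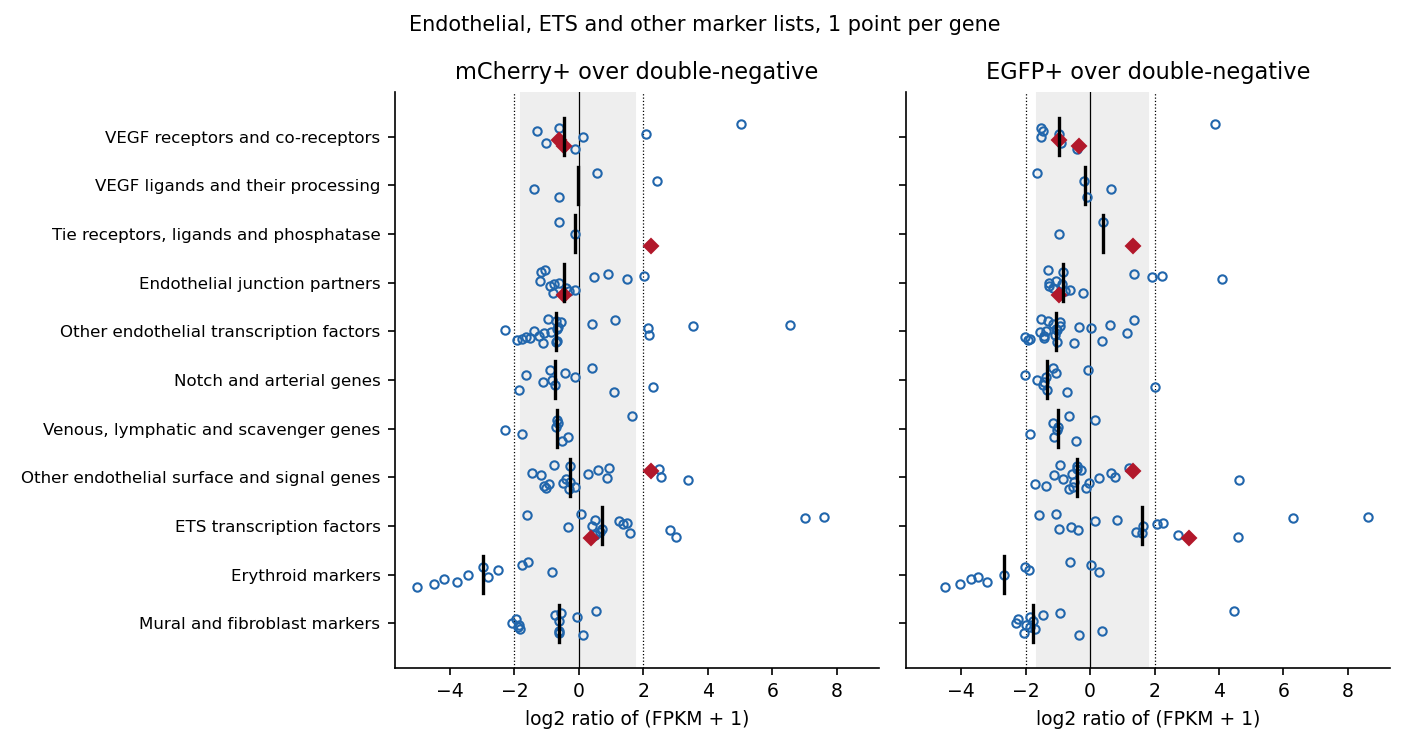
The log2 ratio of (FPKM + 1) over double-negative cells for each measured gene of the endothelial, ETS, erythroid, and mural and fibroblast lists, for mCherry+ cells (left) and EGFP+ cells (right). Red diamonds are kdrl, flt4, cdh5, tek and fli1a, black bars are list medians, dotted lines mark 4-fold, and the grey band spans the 10th to 90th percentile of all genes. The endothelial list medians lie below 0 except that of the angiopoietin pathway in EGFP+ cells (0.41), and the ETS medians (0.71 and 1.61) lie above it.

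Related receptor kinases outside the vessel pathways were a point of comparison. The macrophage growth factor receptor gene csf1ra had 263 FPKM in mCherry+, 1.01 in EGFP+ and 0.817 in double-negative cells. It was the only one of 9 at least 4-fold higher in mCherry+ cells, and none of the 9 was in EGFP+ cells. The fibroblast growth factor receptor gene fgfr2 had 25.5 FPKM in mCherry+, 17.7 in EGFP+ and 42.0 in double-negative cells and the platelet-derived growth factor receptor gene pdgfra had 24.4 FPKM in mCherry+, 6.22 in EGFP+ and 25.4 in double-negative cells. The list medians were −1.05 and −1.13, below those of the VEGF receptor list in both comparisons.

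Markers of other cell types were read beside tek and fli1a. Thrombocytes, the platelet-like cells of fish, also express fli1a. Of 8 tested thrombocyte genes, 2 were at least 4-fold higher in mCherry+ cells and 3 in EGFP+ cells, beside 8.18% and 8.53% of all genes. The summed level of the 9 matched was 172 FPKM in mCherry+, 459 in EGFP+ and 57.7 in double-negative cells. Those past 4-fold were fli1b and fermt3b, an integrin activator gene that leukocytes also use, in both reporter libraries, and f5 in EGFP+ cells. Their defining integrin gene itga2b, listed at 0 in mCherry+ and in EGFP+ cells, had 0.451 FPKM in double-negative cells. Another gene of the list, mpl, went the other way. It had 1.62 FPKM in mCherry+, 1.16 in EGFP+ and 0.0838 in double-negative cells. Of the 8 tested, 3 were above the double-negative level in mCherry+ cells and 6 in EGFP+ cells. Of all genes, 51.3% were below that level in each comparison. The summed level of kdrl, flt4 and cdh5 was 11.1 FPKM in mCherry+, 8.63 in EGFP+ and 16.9 in double-negative cells, so tek and fli1a were highest in libraries where these vessel genes were lower than in the double-negative library. Erythroid genes summed to 178 FPKM in mCherry+, 265 in EGFP+ and 4354 in double-negative cells, and mural and fibroblast genes to 846 FPKM in mCherry+, 889 in EGFP+ and 2972 in double-negative cells. The part of these other cells in the tek and fli1a values was not tested.

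Genes with the most similar pattern were sought among 7802 named genes whose highest FPKM was 5 or above. Likeness was the distance between the pair of log2 ratios over double-negative cells, over 3 libraries, which is a description. The 3 nearest to kdrl were zbtb8b, cdkn2aipnl and nedd8, those nearest to cdh5 were foxj1a, uchl1 and nipa2, and those nearest to flt4 were shisa3, sema3d and igf1ra. Such patterns were common: 603 genes lay within a distance of 0.5 of kdrl, 436 of cdh5 and 454 of flt4. On this scale 102 genes lay within that distance of tek, the nearest being tmem180 (129 FPKM in mCherry+, 67.8 in EGFP+ and 26.2 in double-negative cells), anxa11a and crfb6. That likeness rests on the pseudocount: in FPKM without it tmem180 was 4.93 times its double-negative level in mCherry+ cells and 2.59 times in EGFP+ cells, against 11.7 and 5.43 for tek, and its distance from tek was 1.65. In that calculation, chosen after seeing the data, 27 genes lay within 0.5 of tek and 18 of fli1a. With the pseudocount the pattern of fli1a was shared by 21 genes, the fewest of the 5, and the nearest were myh9a (34.7 FPKM in mCherry+, 234 in EGFP+ and 25.6 in double-negative cells), cdk4 and ptgs1.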

How the data were processed

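RNA-seq values came from 1 table the authors deposited, with 1 FPKM value per gene and library. The submitters' processing notes name the build danRer7 and the tools TopHat2 2.0.11, Cufflinks 2.2.1 and cutadapt; settings, step order and annotation: not given in the sources used here. Very abundant genes lower the FPKM of all others; FPKM sums came to 571639 in mCherry+, 696949 in EGFP+ and 356886 in double-negative cells. Whole-read steps were sought among 567 to 932 low genes per pair: no window of 0.5% around a ratio held more than 1.72% of them (median 0.5% to 0.54%), so depth was not recovered and no counting interval is given. An exact 0 is given as listed at 0.

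Ratios were log2((FPKM + 1)/(FPKM + 1)), in Python 3.11.15 with numpy 2.4.6 and pandas 2.3.3, over the 12285 genes whose highest FPKM was 1 or above, and ratios past 4-fold were called. The steps were tested on simulated data in which only genes with a mean FPKM of 10 or above were changed, by 8-fold. That test does not cover calls at lower levels, such as that of tek. Scalings used the median ratio of genes at 5 FPKM or above throughout, 62 housekeeping genes or the FPKM sum. They put the median of all genes at −0.35, −0.40 and −0.58 for mCherry+ and −0.42, −0.42 and −0.77 for EGFP+ over double-negative cells, against −0.04 and −0.05 as deposited. The genes and lists were chosen with earlier results of these data known. The rule for naming took all members, list genes past 4-fold (up to 6 per list and comparison), the 4 with the highest FPKM per list, and the 3 genes most like each member; marker lists of other cell types are given mainly as sums, figf and fgfr4 are left to the counts, and 1 junction gene that met the rule is not reported here. Others, such as kdr, flt1, angpt1, cldn5b, etv2, scarb1, egfl7, itga2b, mpl, pdgfrb, acta2 and runx1, were named after their values were seen. Names matched RefSeq symbols of assembly GRCz12tu (fli1a by an older symbol); the builds differ, so no coordinates are given.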

Additional observations from a re-analysis of the deposited data

How the results depend on the processing

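With 1 library per population, no result could be tested or have a replicate left out. No paired analysis was possible because each population has 1 library and the labels give no replicate numbers. Of the 5 measured genes, the 1 at least 4-fold higher in mCherry+ than in double-negative cells (tek) became 0 with a pseudocount of 5, with median-ratio, housekeeping or same-sum scaling, when 8-fold was required, and when genes had to reach an FPKM of 10, which only fli1a did. Over all 12285 genes, 1005 became 651 with that pseudocount, 763, 735 and 616 with those scalings, and 480 at 8-fold. Of the 6944 genes reaching an FPKM of 10, 957 were called. The 1 at least 4-fold higher in EGFP+ than in double-negative cells (fli1a) became 2, with tek added, with a pseudocount of 0.1, at a 2-fold threshold, and without a pseudocount, the last chosen after seeing the data. Over all 12285 genes, 1048 became 1325 with that pseudocount and 2609 at 2-fold. No all-gene count was made without a pseudocount. The 1 at least 4-fold lower in mCherry+ than in EGFP+ cells (fli1a) became 0 at an 8-fold threshold, where 410 over all genes became 178. The 3 remaining counts were 0 in every setting tried. Of 108 recomputed gene ratios, 97 moved by less than the SD of housekeeping log2 ratios for that comparison (0.46 for mCherry+ and 0.75 for EGFP+ over double-negative cells, 0.70 for mCherry+ over EGFP+ cells) and 11 moved by more, and no called ratio changed sign. The 97 include the ratios recomputed under the 2 changes of the filter on low values. A filter cannot alter a gene's own ratio, so those were unchanged in advance and say nothing of stability. Nor could the median-ratio or housekeeping scaling move any ratio past these SDs. Their shifts were at most 0.44 for mCherry+ and 0.48 for EGFP+ over double-negative cells. The ratios under these 2 scalings therefore say nothing of stability either. The ratio of kdrl for mCherry+ over EGFP+ cells, −0.11, was 0.08 with the same FPKM sum. For EGFP+ over double-negative cells the ratio of fli1a ranged from 2.13 to 3.25 and that of tek from 0.51 to 2.44. Depth is unknown, and it limits most the values under an FPKM of 1, such as tek in double-negative cells.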

Other observations

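Genes of blood stem and progenitor cells, which arise from the vessel wall in the embryo, were mixed in direction in the same libraries. The transcription factor gene runx1, needed for that emergence, had 7.39 FPKM in mCherry+, 6.99 in EGFP+ and 1.30 in double-negative cells. The lymphoid and progenitor regulator gene ikzf1 had 8.55 FPKM in mCherry+, 45.3 in EGFP+ and 0.627 in double-negative cells, and cebpa, a myeloid regulator gene, had 137.9 FPKM in mCherry+, 98.98 in EGFP+ and 13.5 in double-negative cells. In contrast meis1, which is active in many embryonic tissues, had 16.5 FPKM in mCherry+, 13.5 in EGFP+ and 52.8 in double-negative cells. Of 11 tested genes of that list, 2 were at least 4-fold higher in mCherry+ cells and 2 in EGFP+ cells, beside 8.18% and 8.53% of all genes. At least 4-fold lower in EGFP+ cells was 1, beside 5.38% of all genes (hoxb4a, listed at 0 there and at 4.39 FPKM in double-negative cells). The medians were −0.69 and 0.38. With the same FPKM sum 1 gene was that much higher in each reporter library, beside 616 and 514 of all 12285 genes. In EGFP+ cells 2 were then that much lower, beside 1766 of all genes, and the median was −0.25.

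In the thrombocyte list the genes with the largest difference between reporter libraries were f5, the coagulation factor gene, and itgb3a, an integrin gene. The level of f5 was 3.18 FPKM in mCherry+, 149.9 in EGFP+ and 11.3 in double-negative cells, and that of itgb3a was 11.9 FPKM in mCherry+, 112 in EGFP+ and 34.6 in double-negative cells. In the mural and fibroblast list the smooth muscle myosin gene myh11a was also highest in EGFP+ cells, with 5.59 FPKM in mCherry+, 100.01 in EGFP+ and 3.54 in double-negative cells.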
